A study of Mus musculus with 26 samples.

Results

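Cytosolic ribosomal proteins, the protein components of the ribosomes that translate nuclear-encoded messenger RNA, were followed in whole hearts of mouse embryos at embryonic day 12.5. Members were all probe sets whose annotation held a single gene symbol made of Rpl, Rps or Rplp and a digit, with the ribosomal S6 kinases left out. This gave 56 of 13179 probe sets, 38 on the A array and 18 on the B array, for 45 of the 6137 genes named by a single symbol. The study measured total RNA of 13 hearts on 26 oligonucleotide arrays, 1 A and 1 B array per heart. In the mouse line, the NK2-specific domain is deleted from Nkx2.5, which encodes a homeobox protein that regulates cardiac genes. Null hearts were numbered 3, 4, 8 and N3 (n = 4). Heterozygous hearts had the numbers 5, 6, 12 and N2 (n = 4), and the 5 wild-type controls were numbered 1, 2, 7, 9 and N1. The labels give no strain, sex or litter and no further treatment, so p-values measure only the spread between these hearts. Nkx2-5 RNA itself was not analysed here.

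Each ribosome joins a small subunit, which reads the messenger RNA, to a large subunit, which forms the peptide bonds. Proteins named Rps belong to the small subunit and those named Rpl to the large one, while Rplp0, Rplp1 and Rplp2 form the stalk of the large subunit that recruits elongation factors. Their genes are transcribed in nearly every cell in step with growth, and many of their messenger RNAs begin with a run of pyrimidines, the 5′ terminal oligopyrimidine tract, through which the mTOR pathway controls their translation. Loss of 1 copy of Rps19, Rps24, Rps26 or Rpl5, among others, causes Diamond-Blackfan anaemia in humans, in which heart malformations also occur.

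To show the start-site element that the family is known for, RefSeq start regions (assembly GRCm38.p6) were searched; 35 of the 45 genes had 1 or more windows of 300 bases, 43 windows in all. The 4 tested genes with the longest run of C or T within 10 bases of the annotated start are printed from 50 bases before the start to 20 after it, 5′ to 3′, with that run in capitals:
Rpl7a, chr2:26910757-26910826, forward strand: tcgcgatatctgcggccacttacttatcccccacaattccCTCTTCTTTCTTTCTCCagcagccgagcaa
Rpl27a, chr7:109519145-109519214, forward strand: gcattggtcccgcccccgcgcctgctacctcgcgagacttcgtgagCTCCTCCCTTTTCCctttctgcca
Rpl28, chr7:4792915-4792984, forward strand: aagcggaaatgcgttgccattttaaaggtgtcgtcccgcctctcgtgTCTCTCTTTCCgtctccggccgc
Rps18, chr17:33955646-33955715, reverse strand: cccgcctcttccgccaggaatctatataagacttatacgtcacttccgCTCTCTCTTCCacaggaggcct
Among the members that led differences between genotypes as deposited, some with a window, such as Rpl10 and Rps26, are not printed. These 4 of them are marked in the same way:
Rps15, chr10:80292381-80292450, forward strand: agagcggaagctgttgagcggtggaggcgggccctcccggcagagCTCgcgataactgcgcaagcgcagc
Rplp0, chr5:115559417-115559486, forward strand: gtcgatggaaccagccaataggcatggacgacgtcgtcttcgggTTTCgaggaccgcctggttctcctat
Rpl41, chr10:128549149-128549218, reverse strand: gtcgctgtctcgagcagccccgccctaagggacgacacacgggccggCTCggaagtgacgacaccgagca
Rpl22l1, chr3:28805458-28805527, forward strand: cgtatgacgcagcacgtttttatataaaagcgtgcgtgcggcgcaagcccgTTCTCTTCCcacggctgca
Counted within 10 bases of the start, where runs that go on further are cut short, the longest covered 17 bases in Rpl7a, 14 in Rpl27a and 11 each in Rpl28 and Rps18. They covered 3 bases in Rps15, 4 in Rplp0, 3 in Rpl41 and 9 in Rpl22l1. Over all member windows, 27.9% held a run of at least 8 C or T within 10 bases of the start, against 7.43% of 32851 windows of all genes. On either strand, CGGAAG, an Ets core, occurred in 58.1% of member windows against 16.9% of all windows. ATGGCG, a YY1 core, occurred in 30.2% against 8.93%, and GGGCGG, a GC box, in 51.2% against 35.7%. TATAAA occurred in 14.0% against 13.6%, and TNAAGTG, the element bound by Nkx2-5, in 11.6% against 11.5%. Motif matches are descriptions of letters in these windows, and windows of 1 gene can overlap.

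Most ribosomal protein probe sets were among the brightest of the arrays. A probe set was tested where at least 4 arrays exceeded a floor of 2 times the noise, 887 on A and 1373 on B, and each genotype had at least 2 values. This left 45 probe sets of 37 genes, 30 on A and 15 on B, and 44 of them exceeded the floor in every heart that had a value. Their mean intensity over hearts ran from 1363 to 68784 on A, with a median of 31717, and from 4148 to 69859 on B, with a median of 49145. Signals of different probe sets do not rank transcripts, because probes differ in how they bind. Of the tested members, 23 on A and 13 on B lay above the 98th percentile of their array. The coefficient of variation over hearts had a median of 15.9% on A and 24.1% on B. The lowest was 7.56% in Rpl10a and the highest 52.1% in Rpl10.

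Detection followed the kind of probe set. On this array design the suffixes f and s mark probe sets whose probes can match a family of sequences or several transcripts, and 43 of the 45 tested members were of these kinds. Of 37 members of kind f, 36 were tested, and of 9 of kind s, 7. Of the 8 members without such a letter only 1, Rpl10, was tested, and 6 exceeded the floor in no heart. Over all probe sets, 49.6% of kind f, 36.0% of kind s and 20.7% of those without a letter were tested. Signal from paralogs and processed pseudogenes, which are numerous for this family, cannot be told apart in the f and s probe sets. The probe sets for Rps7, Rpl27, Rpl34, Rpl39l, Rpl4, Rpl32, the transcribed pseudogene Rps4l and the pseudogene Rpl32-ps did not exceed the floor in any heart. A further A probe set, left out because it names both Rpl32l and Rpl32, had a mean log2 intensity of 15.7. Rpl10a and Rpl7 each had a further probe set that never exceeded it, beside another above it in every heart. Rpl10a measured 27590 on average by the f probe set and -241 by the plain one, and Rpl7 19662 by the f probe set and 413 by the plain one. These genes were therefore reported through their f probe sets.

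The B arrays of hearts 7, 9 and 12 had a lower ceiling than the others, and bright ribosomal proteins were lower in them too. The highest value of any probe set was 36247 to 49132 in these 3 and 73894 to 229274 in the other 10 B arrays. Over probe sets present in all hearts, the 99th percentile was 27125 to 34308 in the 3 and 47108 to 77005 in the rest. Members are among the brightest of these probe sets, so this percentile is not independent of them. Median intensity of the bright members was 27740 to 32108 in the 3 and 45744 to 67531 in the rest. Of the 14 bright B members, all but Rpl5, 12 were lower in hearts 7, 9 and 12 than in every other heart. Hearts 7 and 9 are wild-type and heart 12 is heterozygous, so no null heart had such an array. Blank cells also differed: among A arrays 81.3% of cells were blank in heart 1, 71.8% in heart 6 and 62.5% in heart N2. Among B arrays the share was 80.6% in heart 3 and 71.4% in hearts 9 and N1. Heart 1 had a value for only 1 tested A member, heart 6 for 4 and heart N2 for 10.

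**Figure D1:**
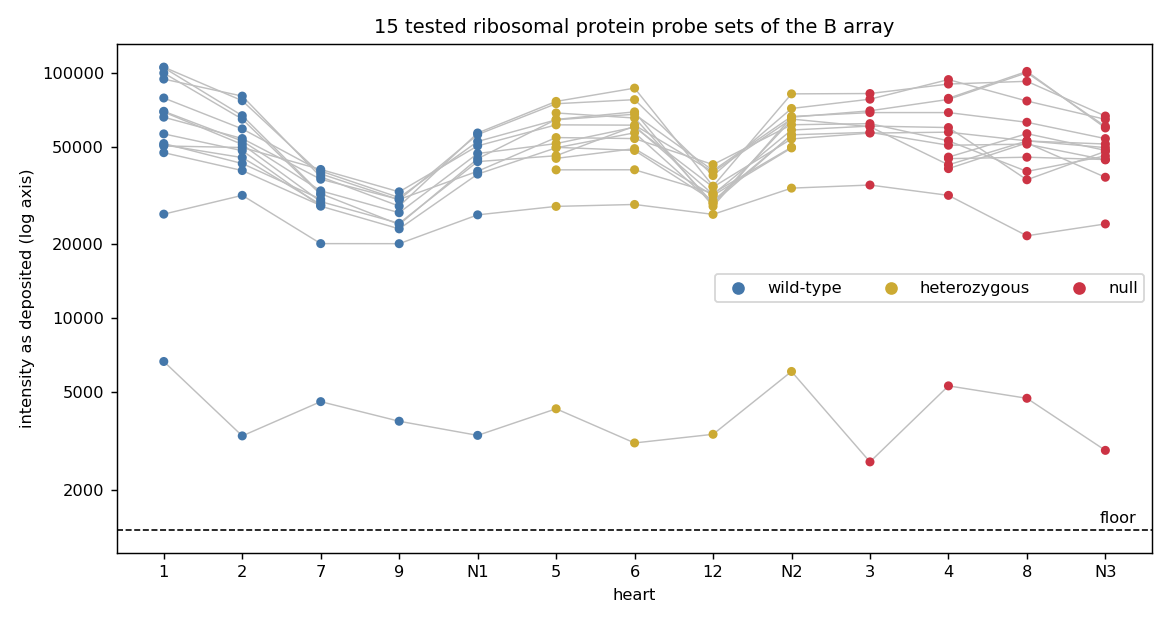
Intensity as deposited (log axis) of the 15 tested ribosomal protein probe sets of the B array in each of 13 hearts; each grey line joins 1 probe set, colours mark genotype and the dashed line is the floor of 1373. The bright probe sets dip together in hearts 7, 9 and 12, while the lowest line, Rpl5, does not.

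In null against wild-type hearts, the comparison that removes the domain from the 2 alleles, ribosomal protein signal was slightly higher as deposited and no member passed the test. Of 45 probe sets 42 had a higher mean log2 value in null hearts, where 48.6% of all 4494 tested probe sets did. The median difference was 0.21 on the log2 scale, 0.17 on A and 0.30 on B, against -0.01 over all tested probe sets. At an adjusted p of 0.05 (limma, Benjamini-Hochberg over both arrays) 0 of 45 were called, with 0.0223% of all tested probe sets called. At an unadjusted p of 0.05 there were 2, Rps15 and Rpl23a, against 2.4% of all. Small-subunit probe sets were higher in 12 of 13 (median 0.21), large-subunit ones in 25 of 27 (0.18) and stalk ones in 5 of 5 (0.30). In whole-organ RNA, more cells of a type and more RNA per cell cannot be told apart.

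Rps15, a small-subunit head protein needed for late maturation of that subunit, measured 55994, 35348, 43584 and 41809 in wild-type hearts 2, 7, 9 and N1. It measured 59228, 60282 and 53993 in null hearts 3, 4 and N3, and 45330 and 33884 in heterozygous hearts 5 and 12. The null values lay high and close together, and wild-type heart 2 fell among them. The difference from wild type was 0.41 ± 0.18 (SE; limma p = 0.0427, adjusted p = 0.9999), and it was 0.11 after the matched quantile scaling described below. Rpl23a, a large-subunit protein at the peptide exit tunnel, measured 34834, 23532, 28224 and 26674 in wild-type hearts 2, 7, 9 and N1, and 39546, 38572, 31099 and 35402 in null hearts 3, 4, 8 and N3. All null values except that of heart 8 exceeded every wild-type value. The difference was 0.36 ± 0.16 (SE; limma p = 0.0427, adjusted p = 0.9999) and 0.19 after that scaling.

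Rplp0, which anchors the stalk, had the third smallest p among higher members. By its B probe set X15267_f_at it measured 104842, 66846, 32142, 24075 and 44624 in wild-type hearts 1, 2, 7, 9 and N1. The null hearts 3, 4, 8 and N3 measured 69972, 77861, 100009 and 60432, and the heterozygous hearts 5, 6, 12 and N2 64516, 69269, 28550 and 65890. The lowest values, in hearts 7, 9 and 12, were those of the B arrays with the low ceiling. The difference was 0.67 ± 0.39 (SE; limma p = 0.107, adjusted p = 0.9999), and 0.24 after matched quantile scaling. The 2 other Rplp0 probe sets gave 0.30 on A and 0.40 on B, and 0.09 and 0.18 after that scaling. Stalk probe sets were the 1 group in which every member was higher in null than in wild-type hearts under each of the 5 scalings tried, with a median of 0.09 to 0.30; 3 of the 5 measure Rplp0 and the other two Rplp2.

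The members lower in null hearts did not reach an unadjusted p of 0.05. Rps4x, the X-linked form of a small-subunit body protein, differed by -0.11 ± 0.15 (SE), Rpl5, which binds 5S ribosomal RNA and can inhibit Mdm2, by -0.18 ± 0.28, and Rpl8, a large-subunit protein near the catalytic centre, by -0.07 ± 0.21. The A probe sets AA409561_rc_f_at and AA589525_rc_f_at, which name Rpl5 together with Rpl5-ps2, are no members. They were higher in null hearts, by 0.24 and 0.34 as deposited and by 0.07 and 0.31 after matched quantile scaling. Among the proteins whose loss causes Diamond-Blackfan anaemia, to which Rpl5 also belongs, the differences were 0.10 in Rps19, 0.32 in Rps24 and 0.13 in Rps26. Rpl3, at the peptidyl transferase centre, differed by 0.18, Rpl13a by 0.02 and Rpl10, which joins the large subunit late in its maturation, by 0.40. These are values as deposited, and some signs turned after matched quantile scaling. They were then -0.06 in Rps19, -0.18 in Rps24 and -0.42 in Rpl3, against 0.08 in Rps26, 0.02 in Rpl13a and 0.43 in Rpl10. As deposited, groups did not overlap, with null hearts above, for 2 members, Rpl22 and Rpl41, or 4.44%, where 1.07% of all tested probe sets behaved so. The share among equally bright probe sets was not counted, and Rpl41 had only 2 wild-type values. After matched quantile scaling Rpl22 differed by 0.03 and Rpl41 by -0.08.

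The same shift occurred in other bright probe sets. Tested probe sets that were no members were grouped by mean log2 intensity in bins of width 1. In the bin from 15 to 16, 94.2% of 52 other A probe sets and 91.0% of 67 other B probe sets were higher in null hearts, with medians of 0.20 and 0.29. The 12 A members and 13 B members of that bin had medians of 0.24 and 0.32. Weighted to the members' bins, the equal-signal median was 0.20, and the members exceeded it by a median of 0.04. The other probe sets include 10 tested ones that name a ribosomal protein together with another gene, and 4567 B probe sets carry no gene name, so some of them may measure the family too.

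**Figure D2:**
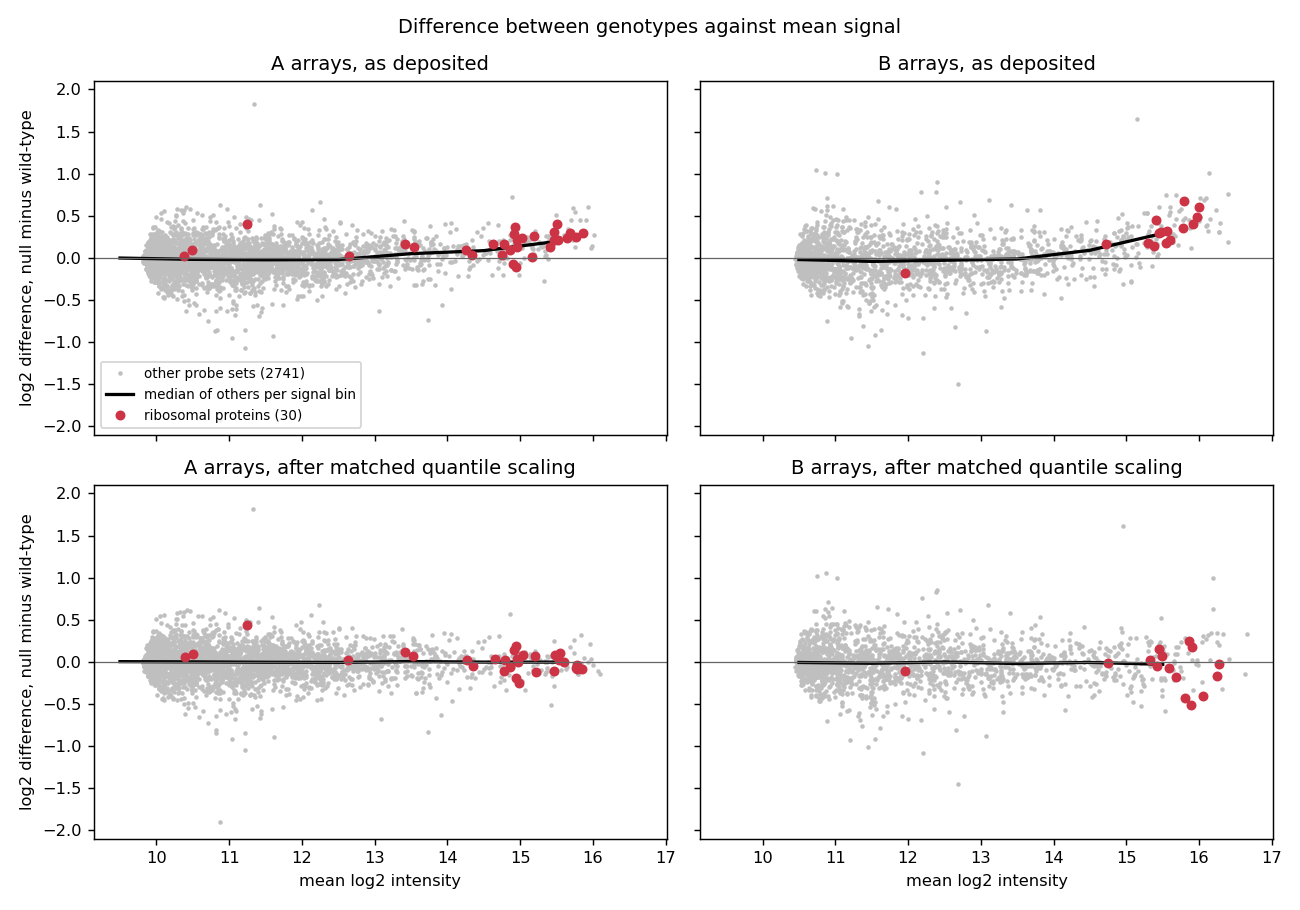
Log2 difference between null and wild-type hearts (y axis) against mean log2 intensity (x axis) for every tested probe set of the A and B arrays, as deposited (top) and after matched quantile scaling (bottom); red points are ribosomal proteins and the black line is the median of the others in bins of width 1. As deposited the black line climbs at the bright end and the red points lie along it; after scaling it is flat and red points lie on both sides of 0.

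After quantile scaling the shift was gone. Plain quantile scaling gave a median member difference of 0.02, with 26 of 45 higher (53.8% of all). Because blank cells lie in blocks, a matched form was added after seeing the data, which maps each array onto the mean distribution of the complete arrays over the probe sets it holds. It gave a median of 0.00 with 23 of 45 higher, where 49.3% of all were. Cyclic loess gave 0.03, with 25 of 45 higher (49.9% of all), and centring on equal-signal probe sets 0.04, with 28 of 45 (49.6%). Leaving out the B arrays of hearts 7, 9 and 12 changed the B median from 0.30 to -0.02 and the overall median to 0.10. In every one of these settings limma called 0 members at an adjusted p of 0.05; of all tested probe sets it called 0% after plain quantile scaling and 0.0223% after each of the other three scalings. After matched scaling the member with the smallest p was Rps3 on B, at -0.40 ± 0.18 (SE; limma p = 0.0392, adjusted p = 0.9997), which had been 0.35 as deposited. That probe set differed by -0.07 after equal-signal centring and -0.12 after cyclic loess. The A probe set of Rps3 differed by 0.05 after matched scaling. By range of heart numbers, as deposited, the median difference was -0.01 within hearts 1 to 6 (22 of 45 higher) and 0.16 within hearts 7 to 12 (25 of 34). Within the N hearts it was 0.18 (34 of 41). Over all tested probe sets the medians were 0.00, -0.001 and -0.007, and the share higher was not counted by range. Each range had 1 or 2 hearts per group and its own set of members. Hearts 7 and 9 had B arrays with the low ceiling. The part of heart number was not tested.

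**Figure D3:**
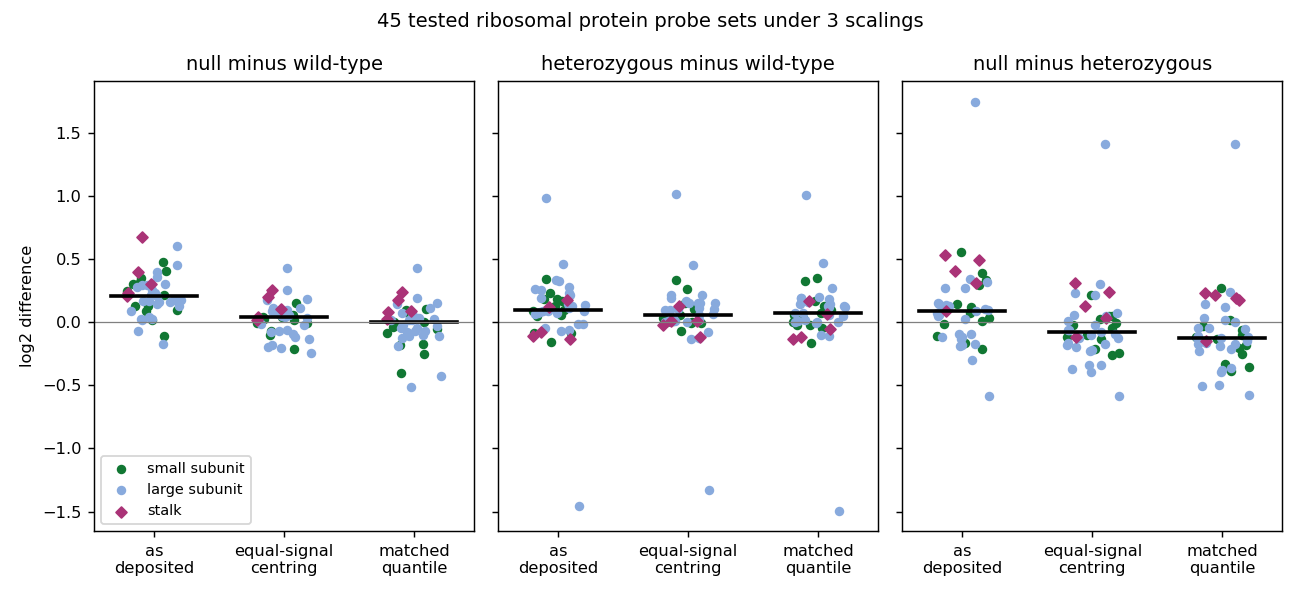
Log2 differences of the 45 tested ribosomal protein probe sets in the 3 genotype comparisons, as deposited, after centring on probe sets of equal signal and after matched quantile scaling; points are probe sets coloured by subunit, spread sideways for legibility, and black bars are medians. The null minus wild-type median goes from 0.21 to 0.04 and 0.00, and the null minus heterozygous median from 0.09 to -0.08 and -0.12.

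Heterozygous hearts, which show the effect of losing the domain from 1 allele, differed little from wild type. Of 45 probe sets 33 were higher as deposited (47.3% of all), the median was 0.10, and 0 were called, as was the case for all tested probe sets (0%). At an unadjusted p of 0.05 there were 2, against 3.38% of all: Rpl22l1 was higher and Rpl41 lower. After matched scaling the median was 0.07 with 32 higher, where 50.4% of all were, and without heart N2 it was 0.06 with 29 higher. Heart N2 had the highest member medians after matched scaling, 0.22 on B and 0.13 on A. There 14 of 15 and 6 of 10 probe sets lay above their mean over hearts without blank cells. Small-subunit probe sets were higher in 10 of 13 (median 0.10), large-subunit ones in 21 of 27 (0.11) and stalk ones in 2 of 5 (-0.07).

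Rpl22l1, a paralog of Rpl22 that can take its place in the ribosome, was measured on A in 12 hearts. It measured 10317, 7792, 11281 and 8973 in wild-type hearts 2, 7, 9 and N1, 11294, 10778, 14775 and 16315 in heterozygous hearts 5, 6, 12 and N2, and 13798, 9341, 9046 and 10944 in null hearts 3, 4, 8 and N3. The heterozygous hearts 12 and N2 were above all others, while heart 6 lay inside the wild-type range and heart 5 just above its highest value, that of heart 9. The difference from wild type was 0.46 ± 0.18 (SE; limma p = 0.0183, adjusted p = 0.981), and 0.47 after matched scaling. Rpl22 itself differed by 0.06. Rpl22l1 was 0.30 lower in null than in heterozygous hearts as deposited (SE 0.18, limma p = 0.107, adjusted p = 0.828).

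Rpl41, the smallest ribosomal protein, had values in 7 hearts. Heterozygous heart 12 measured 13574 and heart 5 52309, below the wild-type values of 78787 and 67784 (hearts 2 and N1) and the null values of 90150, 92674 and 86212 (hearts 3, 4 and N3). Heart 12 stood far below the rest. The difference was -1.46 ± 0.47 (SE) between heterozygous and wild-type hearts (limma p = 0.0104, adjusted p = 0.981) and 1.75 ± 0.43 between null and heterozygous ones (limma p = 0.0019, adjusted p = 0.774). Without heart 2, 5, 12 or N1 a genotype kept only 1 value and the probe set was no longer tested. Rpl10 differed by 0.98 ± 0.47 (SE) between heterozygous and wild-type hearts (limma p = 0.0594, adjusted p = 0.981). It measured 4900 and 2896 in heterozygous hearts 5 and 12, and 3490, 1905, 1774 and 1120 in wild-type hearts 2, 7, 9 and N1, which overlapped.

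**Figure D4:**
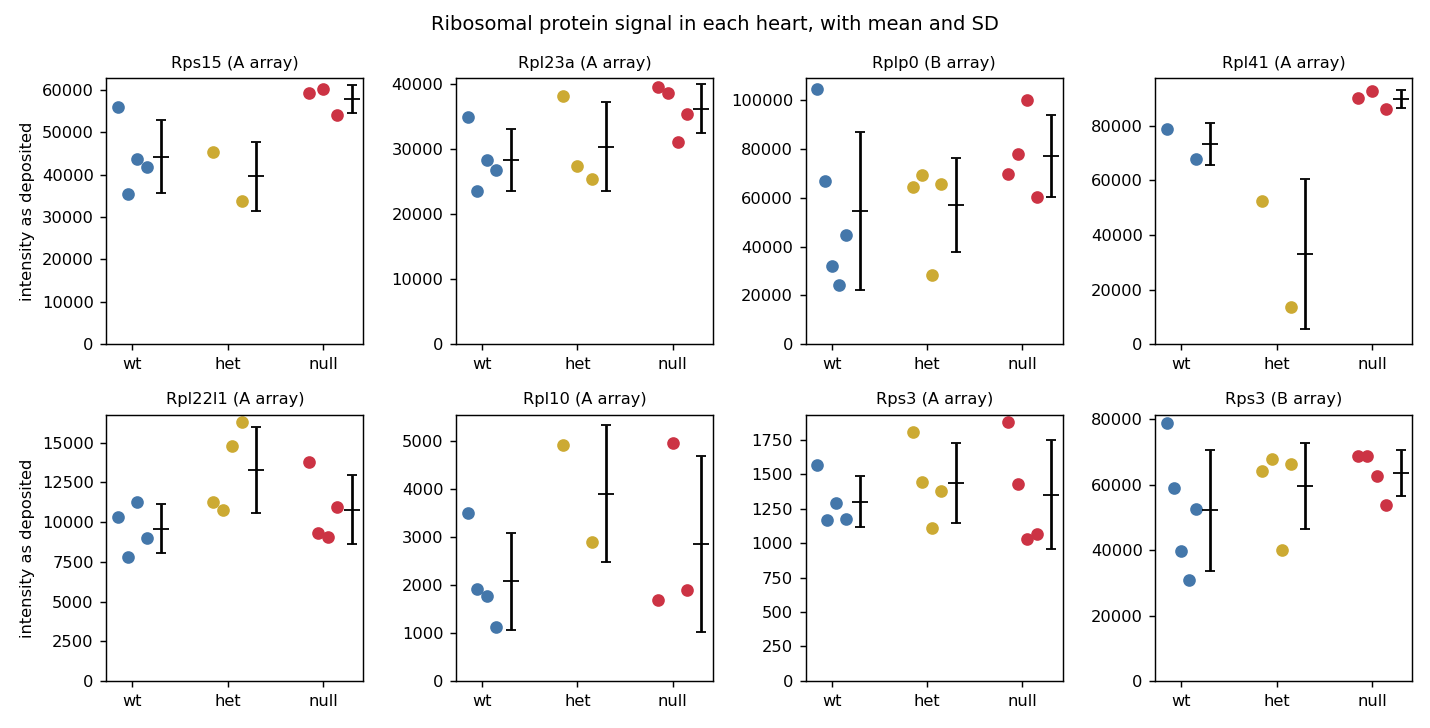
Intensity as deposited in each heart (points) with the mean and SD of each genotype (bars) for Rps15, Rpl23a, Rplp0 (X15267_f_at), Rpl41, Rpl22l1, Rpl10 and the A and B probe sets of Rps3; wt is wild-type and het heterozygous, and each panel has its own y axis from 0. Rpl41 shows the single low heterozygous value of 13574 and Rpl22l1 the 2 high heterozygous values.

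Null against heterozygous hearts gave 31 of 45 probe sets higher as deposited (53.4% of all), with a median of 0.09 and 0 called in limma, as for all tested probe sets (0%). At an unadjusted p of 0.05 there were 2, Rpl41 and Rps15, both higher, against 5.79% of all. Other probe sets of equal signal had a median of 0.26, so members lay below them by a median of 0.12, and 17 of 45 lay above. After matched scaling 13 of 45 were higher, where 49.9% of all were, and the median was -0.12. Without heart N2 these were 17 of 45 and -0.11. With all hearts and matched scaling, small-subunit probe sets were higher in 2 of 13, large-subunit ones in 7 of 27 and stalk ones in 4 of 5, with medians of -0.13, -0.12 and 0.20. The smallest p-values after matched scaling belonged to Rpl41, at 1.42 ± 0.45 (SE; limma p = 0.00986, adjusted p = 0.806), and Rpl12, at -0.39 ± 0.14 (SE; limma p = 0.0150, adjusted p = 0.806). Rps15 was 0.56 ± 0.22 (SE) higher as deposited (limma p = 0.0227, adjusted p = 0.774) and 0.27 higher after that scaling. The genotype comparisons share hearts, so their values are not independent.

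On B, members lay close to other probe sets of equal signal in the hearts that stood out. Deviations were taken from the mean over the hearts without blank cells, 7 on A and 9 on B. Hearts 7, 8, 9 and N2 on A and heart 9 on B are among those left out of that mean. The median deviation of members was 0.42 in heart 1, -0.57 in heart 7, -0.92 in heart 9 and -0.56 in heart 12. The equal-signal medians in the same hearts were 0.34, -0.56, -0.90 and -0.53. In B hearts N2 and 8 they lay further apart, at 0.29 against 0.07 and 0.11 against 0.25. On A the member medians ran from -0.26 in heart 7 to 0.20 in heart 4. With each member set against its own signal bin, members lay furthest below in heart 8 (median -0.19), heart 7 (-0.15) and heart 9 (-0.09). The member and equal-signal medians in these hearts were -0.13 against 0.03, -0.26 against -0.02 and -0.16 against -0.02. In heart 12 they were -0.15 against 0.01, but the median difference from the own bin was only -0.03. After matched scaling all member medians lay between -0.16 and 0.22 over hearts with at least 10 members. Heart 8, a null heart, was then lowest on both arrays, at -0.16 on A and -0.15 on B.

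**Figure D5:**
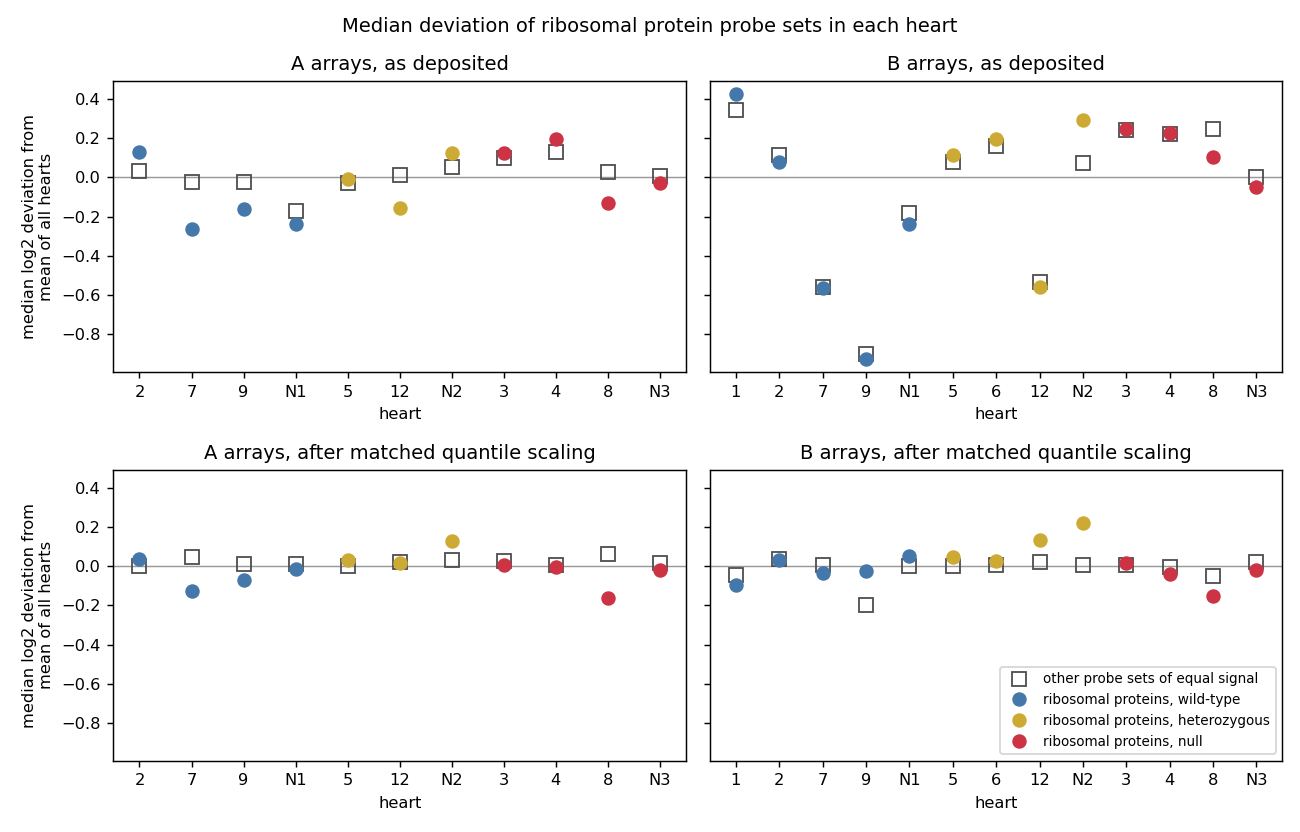
Median log2 deviation in each heart of ribosomal protein probe sets (filled circles, coloured by genotype) and of other probe sets of equal signal (open squares). Deviations are from the mean over hearts without blank cells, although the y axis label names all hearts. A arrays are left (11 hearts with at least 10 members) and B arrays right (13 hearts), as deposited (top) and after matched quantile scaling (bottom). The circles follow the squares in the B hearts 7, 9 and 12, at -0.57, -0.92 and -0.56, and after scaling hearts N2 and 8 stand highest and lowest on B.

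Members moved together over hearts as deposited, and so in part did other bright probe sets. After removing genotype means, the median pairwise Pearson correlation of 24 A members over 7 complete hearts was 0.47, against 0.01 for 438 others of the same signal range. The others were not matched to the members within that range, and most were dimmer. Among tested A probe sets, the bin from 13 to 14 held 2 members and 179 others. The bins from 14 to 15 and 15 to 16 held 12 members each, with 78 and 52 others. For 9 B members over 13 hearts it was 0.87 against 0.67 for 23 others, and for 11 B members over 9 complete hearts 0.90 against 0.80 for 73 others. After matched scaling these were -0.00 against 0.00, 0.21 against 0.01 and 0.09 against -0.02. The points share arrays and scaling, so these are descriptions. The residual SD of members had a median of 0.23 on A, as for equal-signal probe sets (0.23), and of 0.40 on B (0.38), where all tested probe sets had 0.27 and 0.29. The median standard error of a null minus wild-type difference was 0.17 on A and 0.27 on B.

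Probe sets of 1 gene allowed a check of the values. The 2 Rplp0 probe sets of the B array had a ratio of 0.944 to 1.06 in the 10 hearts with both, those of Rpl27a 0.735 to 1.24, of Rpl28 0.756 to 1.08 and of Rpl6 0.707 to 1.10. Yet the fitted null minus wild-type differences of the Rplp0 pair were 0.40 and 0.67, and those of the Rpl6 pair 0.18 and 0.45. In each of these pairs the probe set with the name Msa was blank in hearts 3, 9 and N1. Signs differed within a gene between heterozygous and wild-type hearts for Rplp0 (-0.11, -0.13 and 0.18) and Rplp2 (-0.07 and 0.12). Between null and heterozygous hearts they differed for Rpl28 (0.15 and -0.12) and Rps3 (-0.11 on A and 0.12 on B). None of these passed the test.

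Other genes of the ribosome pathway gave no call between genotypes. Of 15 listed messenger RNAs with a 5′ terminal oligopyrimidine tract that encode no ribosomal protein, 12 genes with 21 probe sets were tested; 13 were higher in null than in wild-type hearts, with a median of 0.12 against 0.05 at equal signal. Eef1a1, the elongation factor that brings aminoacyl-tRNA to the ribosome, was 0.46 ± 0.20 (SE) higher by 1 of its probe sets (limma p = 0.0405, adjusted p = 0.9999), and its others gave 0.37, -0.02 and 0.41. Eef1d, a subunit of the exchange factor for that protein, differed by 0.32 ± 0.14 (SE; limma p = 0.0389, adjusted p = 0.9999). Ribosome biogenesis factors had a median of 0.01, with 11 of 21 probe sets higher, and mitochondrial ribosomal proteins, which build a separate ribosome, 0.04, with 19 of 30 higher. Between null and heterozygous hearts biogenesis factors had a median of -0.07, with 5 of 21 higher. Among them the nucleolar protein Fbl, which methylates ribosomal RNA, differed by -0.68 ± 0.27 (SE; limma p = 0.0222, adjusted p = 0.774) and Gar1, a protein of the pseudouridylation complex, by -0.60 ± 0.22 (limma p = 0.0142, adjusted p = 0.774). Growth regulators (5 genes, 7 probe sets, among them Larp1 and Tsc2) had a median of -0.08, and Rpsa and Fau (4 probe sets) 0.10.

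Of 13 listed heart muscle markers, 9 genes had probe sets named by a single symbol, and all 12 of these probe sets exceeded the floor in every heart with a value; Myh7, Nppa, Myl7 and Pln were not analysed here. Most liver and neural markers were below the floor: Alb, Apoa1, Ttr, Sox10 and Tubb3 exceeded it in no heart. Afp did so in 2 hearts by each of its probe sets, reaching 1442 on A and 3658 on B. Serpina1a exceeded it in 2 hearts by 1 of its probe sets, and the neural marker Mapt in 2, reaching 1597. In null against wild-type hearts heart muscle probe sets were higher in 12 of 12, with a median of 0.33 against 0.29 at equal signal. Erythroid ones were higher in 6 of 6, with a median of 0.51 against 0.21, and none of either passed the test. Leukocyte ones were lower in 2 of 2, and skeletal muscle ones higher in 3 of 4. The log2 ratio of the 3′ to the 5′ Gapdh control probe set on A was -0.26 to -0.08 in wild-type, -0.05 to 0.10 in heterozygous and -0.18 to -0.10 in null hearts. On B the genotypes overlapped, at -0.15 to 0.06, -0.22 to 0.01 and -0.10 to 0.08. The part of these in the ribosomal protein values was not tested.

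Hearts numbered 7 to 12 and N were also set against hearts 1 to 6, with genotype in the model, because these numbers separated many probe sets in earlier results; the labels do not call the numbers a batch. Ribosomal protein signal was lower in the later numbers for 41 of 45 probe sets (52.1% of all were higher), with a median of -0.30 against -0.24 at equal signal. At an adjusted p of 0.05 (limma) 4 members were lower, Rplp0, Rpl32l, Rpl23a and Rps3 on A, or 8.89%, where 7.14% of all were called. At an unadjusted p of 0.05 there were 24, all lower, against 24.7% of all. After matched scaling 19 of 45 were higher (51.3% of all), the median was -0.04, and Rps3 alone was called (-0.52 ± 0.13 SE, limma adjusted p = 0.0323), where 5.08% of all were. That probe set measured 1567, 1810, 1444, 1883 and 1428 in hearts 2, 5, 6, 3 and 4, and 1026 to 1381 in the 7 later hearts, with no overlap. As deposited, 5 of 45 members and 3.63% of all tested probe sets were lower without overlap. The mean of this probe set, 1363, lay near the floor of 887, and with a floor of 1 time the noise it was not called. The B probe set of Rps3, a protein at the entry of the messenger RNA channel, differed by 0.31 ± 0.12 (SE) after matched scaling (limma p = 0.0257, adjusted p = 0.148). The opposite sign was seen under the quantile scalings; as deposited the A and B probe sets differed by -0.48 and -0.47, and the B one by -0.05 after equal-signal centring and -0.01 after cyclic loess.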

How the data were processed

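Total RNA of 13 whole embryonic hearts was measured on A and B arrays. The deposited values are intensity on a linear scale, 1 per probe set, scaled by the authors and partly negative, as the values show; their scaling software is not given in the sources used here. Blank cells were treated as missing. The noise was the root mean square of negative values (443 on A, 686 on B), values were raised to 2 times the noise and log2 was taken. limma 3.58.1 (R 4.3.3) fitted genotype over all 13 hearts with a variance trend, 1 fit per array table, and p-values were two-sided and adjusted by Benjamini-Hochberg over 4494 probe sets. The fit was tested on simulated data. Gene names came from the platform annotation, updated by gene ID through RefSeq (GRCm38.p6; 5551 of 5560 gene IDs were found for A, 1993 of 2001 for B). A further 12 probe sets that name a ribosomal protein and another gene were left out. Alternatives were other scalings, floors and filters, left-out hearts or arrays, a heart-number block and 1 probe set per gene. Named genes were, per comparison, the 3 smallest p-values in each direction, the 4 highest and 4 lowest signals per table, genes whose probe sets differ in sign, and landmark ribosomal proteins. Members and lists were chosen with earlier results of these data known. The number of arrays limits the precision.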

Additional observations from a re-analysis of the deposited data

Results flagged for a closer look

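Among 26 genotype groups of 4 or 5 values, made of per-heart medians and of the members with the smallest p-values, 2 held a heart far from the others by Dixon's gap; chance flags about 1 in 20 groups, or 1.3 here. Gaps and ranges were taken on the log2 scale. Rplp0 by its B probe set X15267_f_at measured 28550 in heterozygous heart 12, with a gap of 0.92 of the log2 range to the next of 4 hearts. That B array is 1 of the 3 with the low ceiling. Rps18, a small-subunit protein of the decoding region, measured 66206 in wild-type heart 2, with a gap of 0.868 of the log2 range above the other 3 A values.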

How the results depend on the processing

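Of the 4 comparisons, the 3 between genotypes gave 0 called members under every alternative run. The median difference of members fell from 0.21 to between 0.00 and 0.04 for null minus wild-type under the 4 other scalings, and its sign turned for null minus heterozygous, to between -0.14 and -0.08 under them and to -0.04 without heart 12. Without 1 heart at a time it was 0.14 to 0.29 for null minus wild-type, 0.06 to 0.26 for heterozygous minus wild-type, -0.04 to 0.15 for null minus heterozygous and -0.35 to -0.25 for the heart-number contrast. The other settings gave 0.00 to 0.22, 0.05 to 0.12, -0.14 to 0.17 and -0.41 to -0.03. The 4 calls of the heart-number contrast, where 7.14% of all were called, became 0 with plain quantile scaling (2.8% of all) or no filter. They became 1 with matched quantile scaling (5.08%, and 1 also without heart N2), cyclic loess (5.87%) or equal-signal centring (5.99%). There were 2 without a variance trend or with 1 probe set per gene and 8 without the 3 N hearts. Where no share is given, that over all probe sets was not counted, so these counts describe no trait of the members. Without 1 heart they ranged from 0 (without heart 2, 5 or 12) to 8 (without heart N2). Without heart 4, 7 or 8 there was 1. Single members reversed as follows. Rpl8 in null minus wild-type ranged from -0.19 to 0.082 when 1 heart was left out, the last without heart N3. Rps28 in heterozygous minus wild-type was 0.073 with quantile scaling and 0.10 with matched scaling, and -0.14 to 0.015 without 1 heart, highest without heart 2. Rps18 in null minus heterozygous was -0.10 under both. In the heart-number contrast Rpl22l1 was -0.052 without the mostly blank arrays, -0.015 without the N hearts, -0.050 with matched scaling without heart N2 and -0.012 (without heart N2) to 0.18 without 1 heart. Rps27l was -0.00057 without the N hearts and -0.086 (without heart 4) to 0.19 without 1 heart. The causes were not tested. Matched scaling, the removal of the B arrays of hearts 7, 9 and 12 and the removal of heart N2 after scaling were chosen after seeing the data. No paired analysis was possible because the genotypes have no heart number in common. With the heart-number range as a block the medians were 0.15, 0.06 and 0.10. Probe sets within 2 times the noise and arrays with many blanks limit depth.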

Other observations

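The 12 probe sets that name a ribosomal protein together with another gene were not members. Of the 10 that were tested, 8 were higher in null than in wild-type hearts as deposited, with a median of 0.22. After matched quantile scaling 5 of 10 were higher, with a median of 0.03. Between null and heterozygous hearts 7 of 10 were higher as deposited (median 0.12) and 3 of 10 after matched scaling (median -0.11). Between heterozygous and wild-type hearts the median was 0.05 as deposited and 0.08 after matched scaling.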
